A study of Mus musculus with 6 samples.

Results

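The 37 genes described here encode subunits, activators and a maturation factor of the mouse proteasome. They were taken by name from a given list and found by Entrez gene number among the 24454 gene rows of the deposited table. All 37 were present, and all 37 were expressed above the minimum for testing, with a lowest level of 15.3 CPM in any library, where 1 CPM is a single read in every 1000000 that were assigned to genes. By name and role, 15 encode the 20S core (7 Psma and 8 Psmb genes), 17 the 19S cap (6 Psmc and 11 Psmd genes), 4 the activators (Psme1 to Psme4), and Pomp encodes a maturation factor. The rule that lists the genes names no measured value.

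The RNA came from MTflEcad, a mouse breast cancer cell line of epithelial cells grown from an MMTV-Neu mammary tumour, in which the Neu oncogene is driven in the mammary gland by a viral promoter. Cells were given hydrogen peroxide every day for 7 months, at 80 µM (I80) or 150 µM (DI150), and a control line was kept without it (PBS). Each dose was represented by a single line, so the effect of the dose and the history of a line cannot be told apart. Each group had 2 libraries; the labels call them biological duplicates and do not say whether they came from separate cultures, so p-values measure only the spread between these libraries, which may be technical. The numbers of libraries are small throughout, and every value is a level of RNA in bulk: fewer cells of a type and less RNA per cell cannot be told apart.

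The 26S proteasome is the protease that breaks down proteins tagged with ubiquitin. Its 20S core is a barrel of stacked rings, in which alpha subunits form the gate and beta subunits the inner chamber with the cutting sites. The 19S cap binds ubiquitin, removes it and feeds the unfolded protein into the core with a ring of ATPases, while the activators, such as PA28, can open the core in the cap's place. Cells under oxidative stress are known to change proteasome composition, and cytokines such as interferon gamma replace the constitutive cutting subunits with those of the immunoproteasome.

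The libraries held from 21017849 to 26608715 reads assigned to genes and from 13905 to 15015 genes with a read. Of the epithelial markers, Krt8, Krt18, Epcam and Cdh1 were expressed in all 6 libraries, while the summed level of all 6 epithelial markers was 9026 to 9409 CPM in PBS, 3393 to 3397 CPM in I80 and 3186 to 3518 CPM in DI150. The fall of the sum was that of the keratins and Cdh1, with Krt19 at 0 in all 4 treated libraries, while Epcam was at 583 and 629 CPM in PBS, 716 and 648 CPM in I80 and 1109 and 1002 CPM in DI150, where it rose. The 7 fibroblast markers summed to 21.8 to 24.0 CPM in every library, but Col1a2 was at 15.3 CPM in both PBS libraries and at 0 in the treated ones, while Pdgfra rose from 5.04 and 5.50 CPM in PBS to 14.5 to 18.98 CPM and Col1a1 from 1.47 and 2.75 CPM to 3.63 to 8.90 CPM. The 4 endothelial markers summed to at most 0.742 CPM. The 7 immune markers summed to 9.77 and 17.2 CPM in PBS and to 1.81 to 2.06 CPM in the treated libraries. The epithelial and immune sums moved between PBS and the treated lines, as did single fibroblast markers, and their part in the results was not tested.

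Psmb4 and Psmd4 were the members that changed most, and they lie on the same stretch of chromosome 3. Psmb4 encodes a structural beta subunit of the core that takes part in the core's assembly, and Psmd4 a cap subunit that binds ubiquitin chains. The 250 bases before the RefSeq start of each gene (build GRCm38.p6, the sequence of mm10, both on the minus strand) are shown because these genes rose most, and the same stretch of Psmb5, a cutting subunit, because it holds a match to the antioxidant response element. The regions are chr3:94886959-94887208 for Psmb4, chr3:95042615-95042864 for Psmd4 and chr14:54617996-54618245 for Psmb5, also on the minus strand. Capitals mark matches on either strand to TGACNNNGC, the core of the antioxidant response element bound by NRF2 and NRF1, to CCAAT, bound by NF-Y, or to GGGCGG, the GC box; no matches of different motifs overlapped in these regions.
Psmb4: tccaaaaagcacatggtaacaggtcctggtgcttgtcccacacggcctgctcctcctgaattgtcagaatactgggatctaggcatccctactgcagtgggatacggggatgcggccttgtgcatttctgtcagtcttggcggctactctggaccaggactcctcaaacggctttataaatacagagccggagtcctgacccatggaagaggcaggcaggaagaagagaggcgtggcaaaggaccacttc
Psmd4: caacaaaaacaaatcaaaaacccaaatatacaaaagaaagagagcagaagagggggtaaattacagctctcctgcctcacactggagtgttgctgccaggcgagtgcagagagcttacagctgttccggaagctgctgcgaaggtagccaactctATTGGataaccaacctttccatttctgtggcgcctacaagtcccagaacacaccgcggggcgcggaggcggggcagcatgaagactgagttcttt
Psmb5: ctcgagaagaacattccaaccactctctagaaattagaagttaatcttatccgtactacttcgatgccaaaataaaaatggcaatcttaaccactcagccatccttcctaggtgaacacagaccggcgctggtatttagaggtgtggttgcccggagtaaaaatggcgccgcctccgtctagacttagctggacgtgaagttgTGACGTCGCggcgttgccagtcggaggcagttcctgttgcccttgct
The region of Psmb4 held none of the motifs, and that of Psmd4 held a CCAAT match beginning 95 bases before the start, read as ATTGG on the gene's strand. The TGACNNNGC match of Psmb5 began 47 bases before the start.

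The RefSeq promoter table held 34 regions for 31 of the 37 members. TGACNNNGC was found in 4 of the 34 (11.8%), against 10.2% of all 32851 promoters of the table, and the genes were Psmb5, Psmb6, Psmc6 and Psmd12. CCAAT was found in 11 (32.4%) against 33.8% of all, and GGGCGG in 19 (55.9%) against 32.7% of all. All promoters of the table were counted, with no filter on expression. Promoters of genes of like level were not set beside the members, so whether the GGGCGG gap is particular to them was not tested. The 4 genes with TGACNNNGC were not called higher in either line: their log2 fold changes against PBS were -0.43 (Psmb5), 0.07 (Psmb6), -0.16 (Psmc6) and -0.03 (Psmd12) in I80, and -0.40, -0.28, -0.69 and -0.32 in DI150. A match is a run of letters and no shown binding site.

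Psmb4 (gene number 19172, chr3:94884324-94886958) stood at 222.4 and 220.8 CPM in the PBS libraries, at 983 and 1009 CPM in I80 and at 1174 and 1154 CPM in DI150. Every treated library lay far above both controls. The mean was 4.50-fold higher in I80 (log2 fold change 2.17 ± 0.06, SE, n = 2 libraries a group, limma with Benjamini-Hochberg adjustment, adjusted p = 1.59e-07) and 5.25-fold higher in DI150 (2.39 ± 0.06, limma adjusted p = 8.41e-08). Psmd4 (gene number 19185, chr3:95032688-95042614) stood at 211.7 and 199.2 CPM in PBS, at 1146 and 1216 CPM in I80 and at 1463 and 1480 CPM in DI150. Its mean was 5.75-fold higher in I80 (2.52 ± 0.07, limma adjusted p = 1.43e-07) and 7.16-fold higher in DI150 (2.84 ± 0.07, limma adjusted p = 6.54e-08). The next largest rise was that of Psma5 in I80, 2.07-fold.

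**Figure D1:**
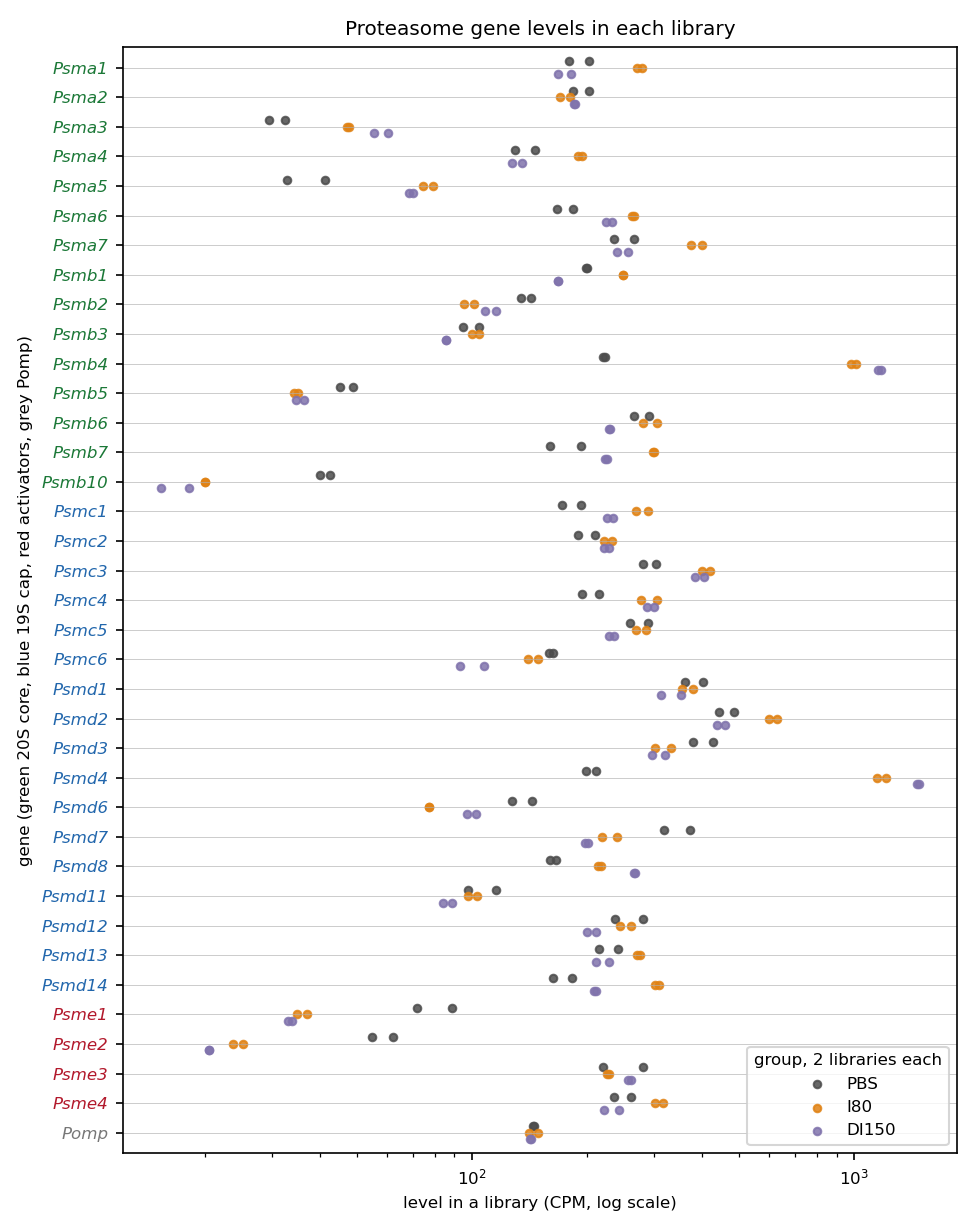
Level of each of the 37 genes in each library, in CPM on a log axis, with grey points for PBS, orange for I80 and purple for DI150 (2 libraries each). Psmb4 and Psmd4 lie between 983 and 1480 CPM in the treated libraries and between 199.2 and 222.4 CPM in the controls, while the points of Psme1, Psme2 and Psmb10 lie lower in the treated libraries.

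Psmb4 and Psmd4 lie 152 kb apart, midpoint to midpoint, within an unbroken run of 25 tested genes whose fitted log2 fold changes were each at least 1 in both lines. The run goes from Pogz to Arnt (chr3:94822989-95497240, 674 kb). It was traced outward from Psmb4 and Psmd4 by that cut on these same values. All 25 genes were called higher in both lines, which follows largely from the cut. Their log2 fold changes were 1.003 to 3.52 with a median of 2.20 in I80, and 1.87 to 3.53 with a median of 2.70 in DI150. Ranked from the top of the 25, Psmd4 was number 10 in both lines, and Psmb4 number 15 in I80 and number 20 in DI150. Both lay within the range of the run's other genes, a description of genes chosen by these values. The tested genes on either side, Cgn before and Golph3l after, had log2 fold changes of 0.78 and 0.77 in I80 and 1.16 and 1.02 in DI150. By distance from the point midway between Psmb4 and Psmd4, the median log2 fold change in I80 was 1.84 within 250 kb (13 genes) and 2.52 from 250 to 500 kb (13 genes), and the medians in DI150 were 2.58 and 2.48. It was 0.69 in I80 and 1.01 in DI150 from 500 to 1000 kb (17 genes), 0.71 and 1.05 from 1000 to 2000 kb (23 genes), and -0.08 and 0.13 from 2000 to 5000 kb (38 genes). Farther out the medians were above 0 again, with 0.26 and 0.57 from 5000 to 10000 kb (114 genes) and 0.47 and 0.66 from 10000 to 20000 kb (67 genes). These medians pool both sides of the point and leave members out, and the sides differed. Toward higher coordinates, tested genes from 2000 to 3000 kb ran from 0.70 (Chd1l) to 2.96 (Fmo5) in I80. The same genes ran from 0.72 to 3.62 in DI150. Toward lower coordinates, the only tested gene at that distance was Pglyrp3, with -2.28 in I80 and -2.38 in DI150.

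**Figure D2:**
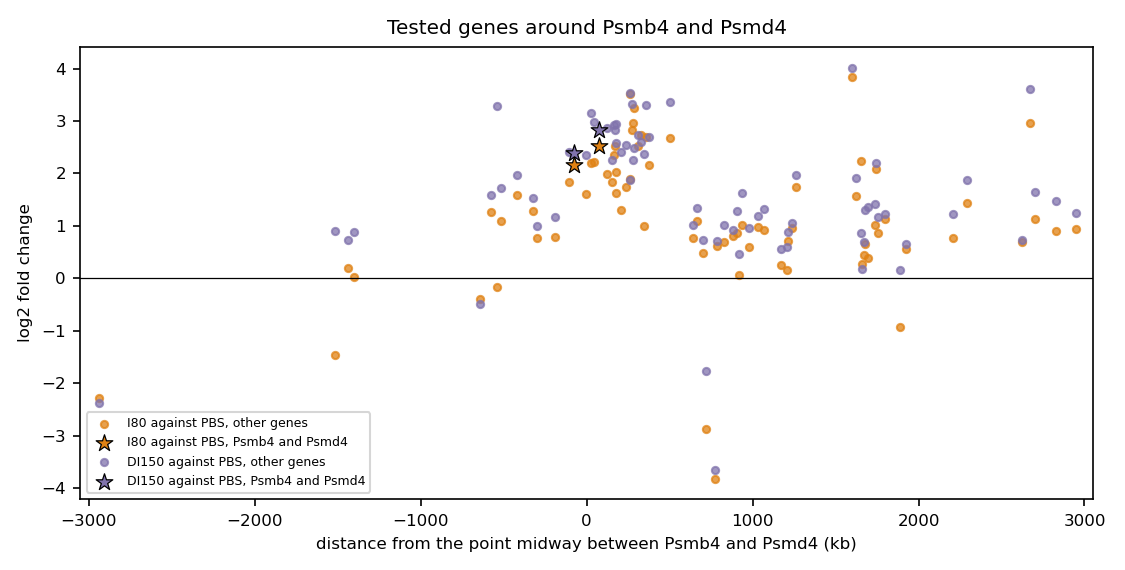
Log2 fold change against PBS of each tested gene within 3000 kb of the point midway between Psmb4 and Psmd4, against its distance from that point in kb, with orange for I80 and purple for DI150 and stars for Psmb4 and Psmd4. The run of genes with log2 fold changes of at least 1 in both lines spans the stars, and values farther out are mostly nearer to 0.

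In I80 against PBS, 27 of the 37 members were called at adjusted p under 0.05 (limma), 19 higher and 8 lower, beside 66.4% of all tested genes called, 32.3% higher and 34.2% lower. The share of members called higher was 51.4% and that called lower 21.6%. The median log2 fold change of the members was 0.19, against -0.00 for all 11428 tested genes. The libraries of the groups did not overlap for 29 members, beside 83.7% of all tested genes. Of the members, 14 changed by at least 1.5-fold (beside 40.04% of all tested genes). PBS replicate 1 lay above PBS replicate 2 in 33 of the 37 members, with a median log2 difference of 0.14 (42.8% and -0.04 over all tested genes), and the members' median in I80 was 0.26 without PBS replicate 1 and 0.12 without PBS replicate 2.

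In DI150 against PBS, 26 of the 37 members were called (limma, adjusted p under 0.05), 11 higher and 15 lower, beside 68.7% of all tested genes called, 32.7% higher and 36.1% lower. These shares of the members, 29.7% higher and 40.5% lower, were near the background. The median of the members was -0.07, against -0.03 for all tested genes. Libraries did not overlap for 29 members, beside 83.5% of all genes, and 10 members changed by at least 1.5-fold, beside 41.8% of all tested genes. The members' median was -0.02 without PBS replicate 1 and -0.15 without PBS replicate 2. Both comparisons use the same PBS libraries.

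Direct comparison of the lines showed more members lower in DI150 than in I80. In DI150 against I80, 21 of the 37 were called (limma), 5 higher and 16 lower, beside 43.8% of all tested genes called, 21.9% higher and 21.9% lower. Members called lower made up 43.2% and members called higher 13.5%, and the members' median log2 fold change was -0.21 against 0 for all genes. Libraries did not overlap for 31 members, beside 78.5% of all tested genes. The counts depended on the libraries: without I80 replicate 1 or without I80 replicate 2, 0 members were called higher and 8 lower, without DI150 replicate 1 there were 3 higher and 10 lower, and without DI150 replicate 3 there were 2 higher and 10 lower. Calls over all tested genes fell in the same fits, to 11.3% higher and 10.7% lower without I80 replicate 1, 11.4% and 10.3% without I80 replicate 2, 13.5% and 12.7% without DI150 replicate 1, and 13.4% and 14.6% without DI150 replicate 3. In each of these fits a group was left with a single library, assumed to vary like the others, while the members' median stayed between -0.25 and -0.18.

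**Figure D3:**
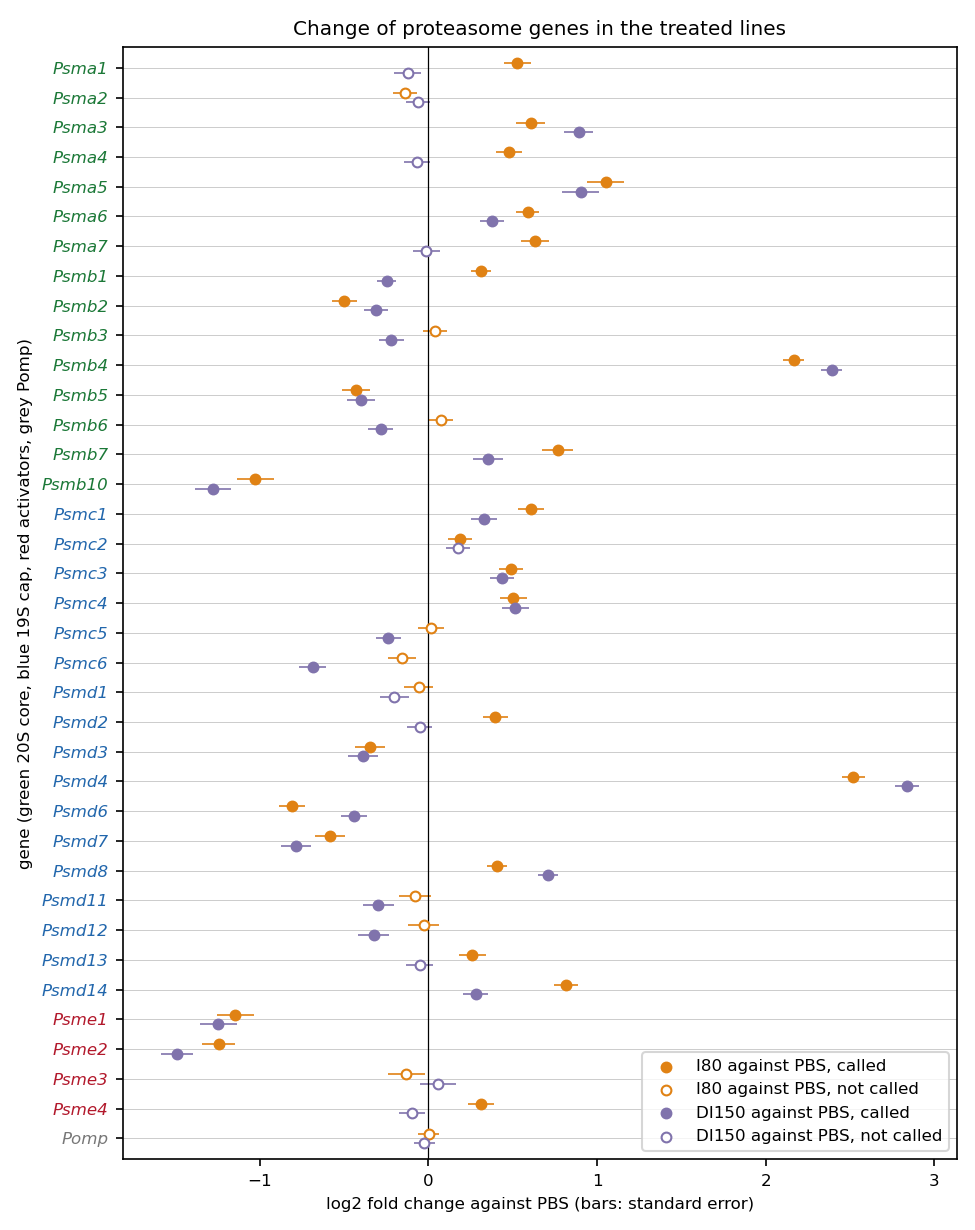
Log2 fold change against PBS of each gene in I80 (orange) and DI150 (purple), with bars of 1 standard error and open circles where the adjusted p did not pass 0.05. Psmb4 and Psmd4 lie above 2 in both lines, Psme1, Psme2 and Psmb10 lie below -1 in both, and the others lie between -0.81 and 1.05.

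Among the 7 alpha subunits, which form the outer rings and the gate of the core, 6 rose in I80 and none of the 7 fell. In DI150, 3 of the 7 rose and 4 were not called. Over all tested genes, 32.3% were called higher and 34.2% lower in I80, and 32.7% and 36.1% in DI150. The counts of such small sets were not tested against these shares. Psma5, an alpha subunit, stood at 41.3 and 32.8 CPM in PBS, at 74.5 and 79.2 CPM in I80 and at 69.99 and 68.5 CPM in DI150. Its libraries did not overlap, and its log2 fold change was 1.05 ± 0.11 in I80 (limma adjusted p = 9.98e-05) and 0.90 ± 0.11 in DI150 (limma adjusted p = 0.000215). Psma3 stood at 32.4 and 29.5 CPM in PBS, 47.8 and 47.0 CPM in I80 and 55.4 and 60.25 CPM in DI150, so that the 3 groups followed each other without overlap. Psma3 rose by 0.61 on the log2 scale in I80 and by 0.89 in DI150, and Psma6 by 0.59 and 0.38.

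The remaining alpha subunits that rose in I80 were near the control level in DI150. Psma1 stood at 202.5 and 179.2 CPM in PBS, at 271 and 278 CPM in I80 and at 168 and 182 CPM in DI150. The DI150 libraries of Psma1 overlapped those of PBS, and its difference between the lines was -0.65 ± 0.08 (limma adjusted p = 0.00074). Psma7, which stood at 265.8 and 234.9 CPM in PBS, 374.5 and 401 CPM in I80 and 240.3 and 256 CPM in DI150, differed between the lines by -0.64 ± 0.08 (limma adjusted p = 0.000855). Psma4 had log2 fold changes of 0.48 in I80 and -0.07 in DI150, the latter not called. Psma2 was called in neither line, with -0.14 and -0.06.

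Of the 7 constitutive beta subunits, 3 rose and 2 fell in I80, and 2 rose and 5 fell in DI150. Beside these counts, 32.3% of all tested genes rose and 34.2% fell in I80, and 32.7% and 36.1% in DI150. Psmb5, Psmb6 and Psmb7 carry the cutting sites, for cuts after hydrophobic, acidic and basic residues respectively. Psmb5 stood at 48.9 and 45.1 CPM in PBS, at 34.3 and 35.2 CPM in I80 and at 36.4 and 34.6 CPM in DI150, below the controls in all 4 treated libraries. It fell by 0.43 on the log2 scale in I80 (SE 0.08, limma adjusted p = 0.00241) and by 0.40 in DI150 (SE 0.08, limma adjusted p = 0.0034). Psmb6 stood at 291 and 266 CPM in PBS, at 280.4 and 306 CPM in I80 and at 228 and 230.0 CPM in DI150, and fell in DI150 (log2 fold change -0.28 ± 0.07, limma adjusted p = 0.0109). Psmb7 moved the other way, from 192 and 160.3 CPM in PBS to 298 and 300.2 CPM in I80 and 223 and 226 CPM in DI150, and its log2 fold change was 0.77 in I80 and 0.35 in DI150. The 3 cutting subunits thus did not share a direction.

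Psmb1, a beta subunit without a cutting site, differed in direction between the lines. It stood at 199.8 and 199.4 CPM in PBS, at 248 and 248 CPM in I80 and at 168 and 168 CPM in DI150, with the libraries of a group close to each other. Its log2 fold change was 0.31 ± 0.06 in I80 (limma adjusted p = 0.00194) and -0.25 ± 0.06 in DI150 (limma adjusted p = 0.00608), and the difference between the lines was -0.56 ± 0.06 (limma adjusted p = 0.000344). Psmb2 fell in both lines, by 0.50 and 0.31, and Psmb3 fell in DI150, by 0.22.

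Psmb10 encodes a cutting subunit of the immunoproteasome, which takes the place of Psmb7 in newly made cores. It stood at 39.99 and 42.5 CPM in PBS, at 19.98 and 20.03 CPM in I80 and at 18.2 and 15.3 CPM in DI150. All 4 treated libraries lay at or below 20.03 CPM and both controls at or above 39.99 CPM. Psmb10 fell by 1.02 on the log2 scale in I80 (SE 0.11, limma adjusted p = 0.000103) and by 1.28 in DI150 (SE 0.11, limma adjusted p = 3.01e-05). The immunoproteasome's other cutting subunits were too low to test: Psmb8 had 0.0376 and 0.324 CPM in PBS, at 0 and 0 in I80 and at 0.0476 and 0 in DI150, where 3 reads amount to 0.113 to 0.143 CPM. Psmb9 had 0.902 and 1.42 CPM in PBS, 0.858 and 0.659 CPM in I80 and 0.666 and 1.22 CPM in DI150, with overlapping libraries in DI150.

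Psme1 and Psme2 encode the alpha and beta subunits of PA28, the activator induced by interferon, and lie side by side on chromosome 14 (chr14:55578494-55581527 and chr14:55587440-55591101). Psme1 stood at 71.8 and 89.0 CPM in PBS, at 34.8 and 37.0 CPM in I80 and at 33.9 and 33.0 CPM in DI150. It fell by 1.14 on the log2 scale in I80 (SE 0.11, limma adjusted p = 5.95e-05) and by 1.24 in DI150 (SE 0.11, limma adjusted p = 3.58e-05). Psme2 stood at 54.8 and 62.3 CPM in PBS, at 23.7 and 25.1 CPM in I80 and at 20.51 and 20.45 CPM in DI150. It fell by 1.24 in I80 (SE 0.10, limma adjusted p = 1.91e-05) and by 1.49 in DI150 (SE 0.10, limma adjusted p = 6.67e-06). The treated libraries of both genes lay below the controls without overlap. Of the 81-base windows of Psme2, 50% also occur in Psme2b, so that its count is uncertain, against 2.91% for Psme1 and 0% for Psmb10.

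The summed level of the immune markers was also lower in the treated lines, a fall carried mostly by Csf1r. The part of the immune markers in the fall of Psme1, Psme2 and Psmb10 was not tested. Of the 7 immune markers, Cd3e and Adgre1 were at 0 in all 6 libraries and Ptprc, carried by all white blood cells, had 0.263 and 0.243 CPM in the controls and at most 0.143 CPM in the treated libraries. Csf1r made up most of the sum in PBS, with 7.67 and 14.5 CPM, and was at 0 in the 4 treated libraries. Csf1r was called lower in both lines. The only other immune marker high enough to test was called in neither, with log2 fold changes of -0.13 in I80 and -0.30 in DI150. Psme3, which encodes the nuclear activator PA28 gamma, was called in neither line, with log2 fold changes of -0.13 and 0.06, and its PBS libraries differed most of all members (280 and 219.9 CPM). Psme4, which encodes the activator PA200, stood at 261 and 236 CPM in PBS, 316 and 302 CPM in I80 and 222 and 243 CPM in DI150. It rose by 0.31 in I80 (SE 0.08, limma adjusted p = 0.00888) and had -0.10 in DI150, not called.

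The 19S base holds a ring of 6 ATPases, Psmc1 to Psmc6, of which 4 rose and none fell in I80, and 3 rose and 2 fell in DI150. The shares over all tested genes were 32.3% higher and 34.2% lower in I80, and 32.7% and 36.1% in DI150. Psmc4 stood at 215.6 and 194.3 CPM in PBS, at 277 and 305 CPM in I80 and at 286.5 and 299 CPM in DI150, above the controls in every treated library. Its log2 fold change was 0.51 ± 0.08 in both lines (limma adjusted p = 0.000863 in I80 and 0.000768 in DI150). Psmc3 rose by 0.49 and 0.44 and Psmc1 by 0.61 and 0.33. Psmc6 went the other way, from 162.6 and 159.4 CPM in PBS to 140.5 and 149 CPM in I80 and 92.9 and 107 CPM in DI150. The fall of Psmc6 was not called in I80 (-0.16 ± 0.08, limma adjusted p = 0.13) and was called in DI150 (-0.69 ± 0.08, limma adjusted p = 0.000195), and the lines differed by -0.53 (limma adjusted p = 0.00208). Psmc5 fell in DI150 by 0.24. Psmc2, with 0.19 in I80, passed narrowly (limma adjusted p = 0.0477), and its adjusted p was 0.075 with edgeR and 0.068 with DESeq2.

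Of the base subunits that are no ATPases, Psmd1 and Psmd2 are the large scaffold proteins. Psmd2 stood at 486 and 444 CPM in PBS, at 598.5 and 627 CPM in I80 and at 437 and 460.1 CPM in DI150, so that only the I80 libraries stood apart. It rose by 0.40 in I80 (SE 0.07, limma adjusted p = 0.00196), had -0.05 in DI150, not called, and differed between the lines by -0.45 (limma adjusted p = 0.00258). Psmd1 was called in neither line, with -0.06 and -0.20.

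The lid, which carries the deubiquitinase Psmd14, had 3 of its 8 genes higher and 3 lower in I80, and 2 higher and 5 lower in DI150. All tested genes had 32.3% higher and 34.2% lower in I80, and 32.7% and 36.1% in DI150. Psmd14 stood at 183 and 163.1 CPM in PBS, at 301.5 and 309 CPM in I80 and at 208 and 212 CPM in DI150. Its log2 fold change was 0.82 ± 0.07 in I80 (limma adjusted p = 4.11e-05) and 0.28 ± 0.07 in DI150 (limma adjusted p = 0.01), so both lines lay above the controls and DI150 below I80 (-0.54, limma adjusted p = 0.00115). Psmd8, a scaffold subunit of the lid, rose in both lines and was called higher in DI150 than in I80, as were Psma3, Psmb4 and Psmd4. It stood at 160 and 166 CPM in PBS, 213.9 and 218 CPM in I80 and 267 and 266 CPM in DI150. Its log2 fold change was 0.41 in I80 and 0.71 in DI150, and the difference of 0.31 was called (limma adjusted p = 0.00552).

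Psmd6, Psmd7 and Psmd3, scaffold subunits of the lid, fell in both lines. Psmd6 stood at 144 and 127.5 CPM in PBS, at 77.3 and 77.1 CPM in I80 and at 97.35 and 102 CPM in DI150, lowest in I80. It fell by 0.81 in I80 (SE 0.08, limma adjusted p = 6.27e-05) and by 0.44 in DI150 (SE 0.08, limma adjusted p = 0.00152). Psmd7, the partner of Psmd14, stood at 371 and 318 CPM in PBS, at 218.5 and 240.0 CPM in I80 and at 198 and 201 CPM in DI150, and fell by 0.59 and 0.78. Psmd3 fell by 0.35 and 0.38, and its fall in I80 was not called without PBS replicate 1 or without I80 replicate 1 (limma adjusted p = 0.052 and 0.092). Psmd11 and Psmd12 fell in DI150, by 0.30 and 0.32, and were not called in I80 (-0.08 and -0.03). Psmd13 rose in I80 by 0.26 and had -0.05 in DI150, not called. Pomp, the factor that helps core particles to mature, stood at 145 and 144.6 CPM in PBS, at 141 and 149 CPM in I80 and at 143 and 142 CPM in DI150, with all 6 libraries between 141 and 149 CPM and no call in any comparison.

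Levels of different genes were compared only per length, as CPM per kb of the principal transcript. In PBS, Psmb6 was the highest of the 15 core genes, at 349 CPM per kb, with a core median of 129.9 and a lowest level of 10.9 for Psma3. In I80, Psmb4 was the highest of the core at 842 CPM per kb, 5.97 times the core median of 141, and in DI150 at 984 CPM per kb, 8.73 times the median of 113. In the cap, Psmd7 was highest in PBS at 218 CPM per kb, and Psmd4 was highest in I80 at 886 (6.11 times the cap median of 145) and in DI150 at 1105 (8.10 times the median of 136). Psmd11 was lowest of the cap in all 3 groups, at 37.4, 35.3 and 30.3 CPM per kb. So the order within each complex changed at its top, where the genes of the chromosome 3 run took first place.

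**Figure D4:**
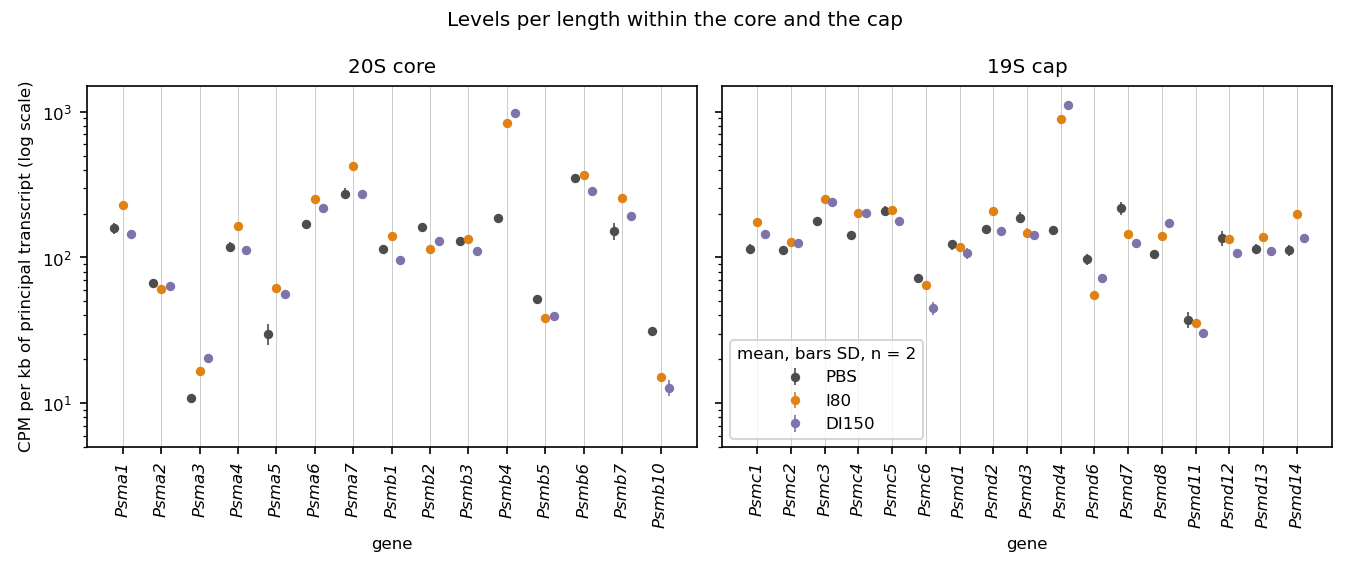
Level per kb of principal transcript (CPM per kb, log axis) of the core genes (left) and cap genes (right), as mean with bars of 1 SD over 2 libraries, with grey for PBS, orange for I80 and purple for DI150. Psmb4 and Psmd4 are the highest genes of their complex in both treated lines, at 842 to 1105 CPM per kb.

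The sum over all 37 genes was 7528 and 6834 CPM in PBS, 9594 and 10027 CPM in I80 and 9058 and 9225 CPM in DI150. Without Psmb4 and Psmd4 the sum was 7094 and 6414 CPM in PBS, 7465 and 7802 CPM in I80 and 6421 and 6591 CPM in DI150. With them, both lines lay above the controls, and without them, DI150 lay within the range of the controls. Sums are given with no test, since the members do not share a length.

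Each member was set beside the median log2 fold change of its 20 nearest tested genes on the same chromosome, other members left out. In I80 against PBS, the correlation across the 37 members was r = 0.958 (Spearman's rho 0.954), and 0.920 without Psmb4 and Psmd4. The same measure over 11363 other tested genes gave r = 0.287 (rho 0.468). In DI150 against PBS, r was 0.952 (rho 0.891), 0.885 without Psmb4 and Psmd4, and 0.277 (rho 0.430) over the other genes. These correlations are descriptions across genes, which are not independent: members on the same stretch share neighbours, the values share the same libraries, and both comparisons share the PBS libraries. The other genes, here and below, include genes with means down to 1 CPM, while the lowest mean of a member was 26.0 CPM. Genes of like level were not set beside the members, so whether the gap is particular to them was not tested. With 10 or 40 neighbours in place of 20, and under each other setting tried, r over the members stayed between 0.917 and 0.965 in I80 and between 0.927 and 0.958 in DI150.

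The sign of a member matched that of its neighbours' median in 35 of 37 in I80 against PBS, 27 of 37 in DI150 against PBS and 23 of 37 in DI150 against I80, where the other genes matched in 69.8%, 67.9% and 71.2%. Among called members alone, for which no share of other called genes was counted as a background, it matched in 27 of 27, 24 of 26 and 16 of 21. Psmb10, for example, lay in a stretch with a neighbour median of -0.79 in I80 and -0.76 in DI150, against its own -1.02 and -1.28. Psme1 and Psme2 had neighbour medians of -0.87 in I80 and -0.67 in DI150. Their own values were lower, with -1.14 and -1.24 in I80 and -1.24 and -1.49 in DI150. In DI150 both lay below the neighbours' lower quartile of -1.18. Psma5, on another stretch of chromosome 3, had neighbour medians of 0.81 and 1.16, against its own 1.05 and 0.90. Psmd7 had -0.82 and -0.74, close to its own -0.59 and -0.78. Psmd6 was an exception in sign in DI150, where it had -0.44 and its neighbours a median of 0.41.

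**Figure D5:**
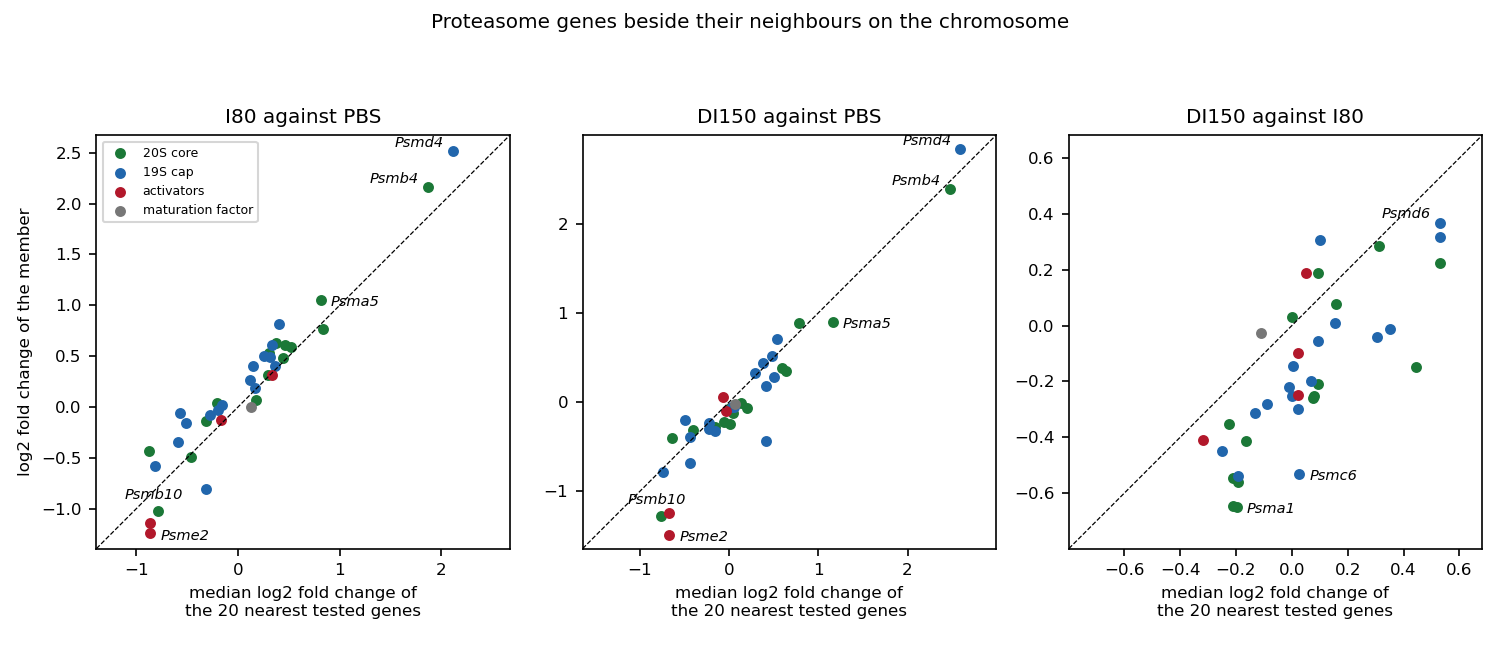
Log2 fold change of each of the 37 genes (vertical) against the median log2 fold change of its 20 nearest tested genes on the chromosome (horizontal), for I80 and for DI150 against PBS (left, middle) and for DI150 against I80 (right), with green for core, blue for cap, red for activators, grey for Pomp, and a dashed line of equality. The points follow the line in the comparisons with PBS (r = 0.958 and 0.952), and 32 of 37 lie below it in DI150 against I80.

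Relative to their neighbours, most members stood higher in I80 against PBS, and most stood lower in DI150 against I80. In I80 against PBS, 28 of the 37 lay above their neighbours' median and 9 below, with a median difference of 0.17 on the log2 scale. Of the cap genes, 1 of 17 lay below, and of the activators 3 of 4, where 50.2% of the other genes did. In DI150 against I80, 32 of 37 lay below their neighbours, with a median difference of -0.21, and 16 of 17 cap genes and 13 of 15 core genes did, where 50.3% of the other genes lay below. In that comparison r was 0.775 (rho 0.812) for the members and 0.404 (rho 0.545) for the others. The count of 32 stayed at 32 or 33 under all settings tried, while the count below in I80 against PBS ranged from 5 without PBS replicate 1 to 16 with quantile normalization. In DI150 against PBS, 26 of 37 lay below, with a range from 19 without PBS replicate 1 to 32 without PBS replicate 2. The median difference there was -0.10, and 10 of 17 cap genes lay below, where 50.3% of the other genes did.

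Other genes of the pathway, from lists without members, did not share a direction against PBS. In DI150 against I80, 0 of the 7 assembly chaperones were called higher and 3 lower, with a median log2 fold change of -0.20. The counts were 2 and 3 (-0.17) for bound proteins and 1 and 3 (-0.26) for gene control. Ubiquitin and shuttle genes had 1 and 5 (-0.13), and MHC class I and interferon genes 3 and 1 (0.32). Over all tested genes, 21.9% were called each way, with a median of 0. The counts of these lists, here and below, stand beside the shares of all tested genes. Those were 32.3% called higher and 34.2% lower in I80, and 32.7% and 36.1% in DI150. Of the 7 assembly chaperones found in the table, 2 rose and 3 fell in I80, and 1 rose and 3 fell in DI150. Psmd5, a chaperone of the base that is known to hold it apart from the core, stood at 94.7 and 91.0 CPM in PBS, 213 and 209 CPM in I80 and 140 and 143 CPM in DI150, with log2 fold changes of 1.18 and 0.61. Psmd10, also a base chaperone (gankyrin), fell from 47.1 and 46.6 CPM in PBS to 30.4 and 29.8 CPM in I80 and 17.8 and 16.4 CPM in DI150, by 0.63 and 1.43 on the log2 scale. Of the 10 other subunits and bound proteins, 2 rose and 2 fell in I80, and 1 rose and 2 fell in DI150. Uchl5, a deubiquitinase of the cap, fell in both, by 0.44 and 0.64, and Psmf1, an inhibitor of the core, rose by 0.32 in I80.

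Of 6 genes that control proteasome genes, 2 rose and 2 fell in I80, and 3 rose and 3 fell in DI150. Nfe2l1, which encodes NRF1, the factor that raises proteasome genes when the proteasome is short, stood at 447 and 478 CPM in PBS, 357 and 348 CPM in I80 and 400 and 360.1 CPM in DI150, and fell by 0.39 and 0.28. Ddi2, the protease that cuts NRF1 into its active form, fell by 0.31 and 0.39. Nfe2l2, which encodes NRF2, the factor of the antioxidant response, stood at 262 and 275 CPM in PBS, 444 and 457 CPM in I80 and 321 and 330 CPM in DI150, and rose by 0.75 and 0.28. Keap1, its inhibitor, rose by 0.77 and 0.31. Vcp, the ATPase that unfolds ubiquitin-tagged proteins, fell in DI150 by 0.61, and Ngly1, the enzyme that strips sugars from NRF1, rose in DI150 by 0.57.

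Of 15 ubiquitin and shuttle genes, 5 rose and 4 fell in I80, and 3 rose and 5 fell in DI150. Uba1, the main ubiquitin-activating enzyme, fell in DI150 by 0.54, and Rad23b, a shuttle, fell by 0.31 in I80 and 0.55 in DI150. Of 9 MHC class I and interferon genes, 6 were tested, of which 1 rose and 3 fell in I80, and 2 rose and 1 fell in DI150. Irf1, a factor that raises immunoproteasome genes, stood at 90.6 and 96.8 CPM in PBS, at 52.2 and 49.8 CPM in I80 and at 41.0 and 37.2 CPM in DI150, and fell by 0.87 and 1.25. Tap2, which helps to carry peptides cut by the proteasome into the endoplasmic reticulum, went the other way and rose by 0.39 in I80 and 0.95 in DI150.

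Some counts are uncertain because other genes hold the same 81-base windows as a member's principal transcript. Besides Psme2, the share of such windows was 36.6% for Psma5, 35.9% for Psmb5, 28.6% for Psmb3, 23.1% for Psmb7, 21.1% for Psma3, 14.1% for Psma4, 13.7% for Psmd13, 13.1% for Psmd2 and 11.5% for Psmd11, and it was 0% for Psmb4, Psmd4, Psmb1 and Psmd6. For Psmb7 and Psmd13 the windows belong to Nek6 and Sirt3 on the opposite strand, and whether reads were counted by strand is unknown here.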

How the data were processed

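Total RNA depleted of ribosomal RNA was sequenced as single 81-base reads from a stranded kit, per the labels' protocols. STAR and mm10 appear, unversioned, per the submitters' processing notes. Which counter, annotation and strand setting were used is not given in the sources used here. A single CPM table was deposited by the authors, scaled to reads assigned to genes, with 24454 gene numbers, of which 24374 matched a symbol. The deposited CPM were whole multiples of the value of 1 read within 1e-06 of a read for 100% of 146724 values, so reads were recovered for the count tests. DI150 has columns numbered 1 and 3 where the labels number 1 and 2; the latter column is called DI150 replicate 3.

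Tests used limma 3.58.1 (trend) on log2(CPM + 0.5), all 6 libraries in a single fit with 3 residual degrees of freedom, over 11428 genes averaging 1 CPM or more, Benjamini-Hochberg adjusted at 0.05 and two-sided; fold changes of low genes are understated on this scale. Alternatives were other pseudocounts, filters, scalings and variances, edgeR 4.0.16 and DESeq2 1.42.0 on recovered reads, a replicate block and leaving out libraries. Lengths and shared windows came from GENCODE transcripts, positions and promoters from RefSeq GRCm38.p6. All members are named, as are genes of the chaperone, bound-protein and control lists; of other lists, called genes with the largest changes and the marker genes. The members and lists were chosen with earlier results of these data known.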

Additional observations from a re-analysis of the deposited data

Results flagged for a closer look

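The log2 fold changes of 21 members differed between the treated lines by the limma test of that difference, DI150 against I80, in which the PBS libraries cancel. Over all tested genes 43.8% were called in this comparison, 21.9% higher and 21.9% lower. DI150 minus I80 was -0.65 (Psma1), -0.55 (Psma4), -0.21 (Psma6), -0.64 (Psma7), -0.56 (Psmb1), -0.26 (Psmb3), -0.35 (Psmb6), -0.41 (Psmb7), -0.28 (Psmc1), -0.25 (Psmc5), -0.53 (Psmc6), -0.45 (Psmd2), -0.30 (Psmd12), -0.31 (Psmd13), -0.54 (Psmd14), -0.41 (Psme4) for the 16 members lower in DI150. It was 0.28 (Psma3), 0.22 (Psmb4), 0.32 (Psmd4), 0.37 (Psmd6), 0.31 (Psmd8) for the 5 members higher in DI150. Psmb1 is the member called in opposite directions against PBS. Of the 21, 7 kept their call under every alternative other than the replicate block, and 18 did when leave-one-out was set aside as well. The 7 were Psma1, Psma4, Psma7, Psmb1, Psmc6, Psmd2 and Psmd14, so none of the 5 members higher in DI150 was among them. Groups of 2 libraries are too small for a search for outlying libraries.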

How the results depend on the processing

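Over the alternatives other than the replicate block and leave-one-out, members called in I80 numbered 18 to 19 higher and 8 lower, in DI150 11 to 12 higher and 14 to 16 lower, and in DI150 against I80 4 to 7 higher and 14 to 19 lower. In the main fit 66.4% of all tested genes were called in I80, 68.7% in DI150 and 43.8% in DI150 against I80. Leaving out a library changed the calls of members, and also those of all tested genes. Each such fit has fewer libraries and leaves a group with a single library, so effect sizes are given here. The members' median log2 fold change ranged from 0.12 to 0.26 in I80, where the main value was 0.19. It ranged from -0.15 to -0.02 in DI150 (main -0.07) and from -0.25 to -0.18 in DI150 against I80 (main -0.21). The cause of these shifts was not tested. Called members that kept their call under every alternative other than the block numbered 23 of 27 in I80 (not Psmc2, Psmd3, Psmd13 and Psme4), 20 of 26 in DI150 (not Psmb3, Psmb6, Psmc5, Psmd11, Psmd12 and Psmd14) and 7 of 21 in DI150 against I80.

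The replicate numbers mark no shared culture or day in the labels, and replicate differences correlated at 0.023 between PBS and I80, -0.055 between PBS and DI150 and 0.213 between I80 and DI150. The replicate block as numbered in the columns gave 18 higher and 8 lower in I80, 8 and 10 in DI150, and 0 and 9 in DI150 against I80. That numbering leaves DI150 replicate 3 alone in its block, so the DI150 values of this fit rest on the other DI150 library only. Its counts for DI150 therefore cannot show an effect of pairing, and the shares of all tested genes called are not given beside them. The members' median log2 fold change in this fit was -0.14 in DI150 and -0.22 in DI150 against I80. With DI150 number 3 taken as 2, an alternative chosen after seeing the data, the block gave 18 and 8, 11 and 15, and 5 and 15.

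Signs turned only for members that were not called. With quantile normalization, values turned to -0.023 for Psmc5 in I80, -0.016 for Pomp in I80, 0.018 for Psmc2 in DI150 against I80, -0.0053 for Psmc4 in DI150 against I80. With median-of-ratios scaling, values turned to 0.0010 for Psma7 in DI150, 0.0012 for Psmc2 in DI150 against I80. With the replicate block as numbered, values turned to -0.034 for Psme3 in DI150, -0.023 for Psmc4 in DI150 against I80, 0.019 for Psme1 in DI150 against I80. With DESeq2, values turned to 0.0013 for Psmc2 in DI150 against I80. Leaving out a library, values in I80 ranged from -0.14 to 0.022 (Psmd1), -0.20 to 0.044 (Psmd11), -0.15 to 0.096 (Psmd12), -0.30 to 0.045 (Psme3), -0.027 to 0.11 (Psmb3), -0.062 to 0.095 (Psmc5), -0.037 to 0.044 (Pomp). Leaving out a library, values in DI150 ranged from -0.13 to 0.0085 (Psma2), -0.15 to 0.019 (Psma4), -0.10 to 0.077 (Psma7), -0.12 to 0.014 (Psmd2), -0.14 to 0.033 (Psmd13), -0.12 to 0.23 (Psme3). Leaving out a library, values in DI150 against I80 ranged from -0.061 to 0.080 (Psmc4), -0.0039 to 0.066 (Psmb5), -0.11 to 0.034 (Psmd3), -0.041 to 0.020 (Psmc2), -0.069 to 0.013 (Pomp). Depth was no limit for testing the members, the lowest of which held 383 reads in its lowest library; the number of libraries limits the precision.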
